A study of Homo sapiens with 8 samples.

Results

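PCDHGC3, PCDHGC4 and PCDHGC5 are the C-type members of the gamma protocadherin cluster on human chromosome 5. They were chosen by a measured value, the share of the region around each transcription start that lay under H3K9me3 peaks in SUM159 cells with guides to ZEB1 against cells without guides. They make up 3 of the 19962 protein-coding promoters measured. Their H3K9me3 differences are therefore given below as a description, with no test. SUM159 is a mesenchymal, claudin-low triple-negative breast cancer line. All cells were transduced with a lentiviral vector that carries dCas9-KRAB, a catalytically inactive Cas9 fused to a repressor domain, under the hUbC promoter, and puromycin resistance. The All gRNA cells also expressed 4 guides to the ZEB1 promoter from the U6 promoter, and the No gRNA cells carried the empty vector, so the controls hold the same dCas9-KRAB. Native chromatin immunoprecipitation was done for H3K9me3, a mark of silent heterochromatin, and H3K4me3, a mark of active or poised promoters, with 2 libraries per group and mark and 8 libraries in all.

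Clustered protocadherins are cell-surface adhesion molecules that bind copies of themselves on neighbouring cells, and they give neurons individual surface identities. In the alpha and gamma clusters each variable exon has its own promoter and is spliced to shared constant exons, so that a single promoter choice decides which extracellular domain is made. Most variable promoters are chosen at random in a neuron, carry a conserved sequence element bound by CTCF, and lie in chromatin that is kept silent by H3K9me3 and DNA methylation when not in use. The C-type genes sit at the end of their cluster next to the constant exons and are used more uniformly. PCDHGC3 is also expressed outside the nervous system, PCDHGC4 is needed for the survival of neurons, and PCDHGC5 is largely restricted to neurons.

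The 3 genes run in the plus direction on chromosome 5 (hg38, GENCODE release 44) and end together. PCDHGC3 (ENSG00000240184.7) spans chr5:141475947-141512977, PCDHGC4 (ENSG00000242419.6) spans chr5:141484997-141512975, and PCDHGC5 (ENSG00000240764.4) spans chr5:141489081-141512975. The PCDHGC4 start lies 9050 bases after that of PCDHGC3, and the PCDHGC5 start lies 4084 bases after that of PCDHGC4. The nearest variable gene on the other side, PCDHGA12, starts 45440 bases before PCDHGC3. The windows of 10 kb on each side of the start used for H3K9me3 overlap by 54.8% between PCDHGC3 and PCDHGC4, 79.6% between PCDHGC4 and PCDHGC5 and 34.3% between PCDHGC3 and PCDHGC5. The 3 values are therefore readings of a single stretch of chromatin and not independent measurements.

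Promoter sequences from RefSeq (GRCh38.p14) ran from 250 bases before to 50 bases after a transcript start. They were held for PCDHGC3 and PCDHGC4, and for 47 of the 53 clustered protocadherins. That start was the canonical one, chr5:141475966 for PCDHGC3 and chr5:141485030 for PCDHGC4, which lies after the gene start given above. The sequences of PCDHGC3 and PCDHGC4 are shown because the peaks described below lie across or beside them. Capitals mark matches to CGCT and CCAAT on either strand. CGCT is the core of the conserved element of clustered protocadherin promoters, and CCAAT is a general promoter motif. So short a match does not show that the element itself is present, since 69.4% of 27305 promoters held CGCT. In the PCDHGC3 sequence a pair of CGCT matches on opposite strands abut. The sequences are chr5:141475716-141476015 for PCDHGC3 and chr5:141484780-141485079 for PCDHGC4, both on the plus strand.
PCDHGC3: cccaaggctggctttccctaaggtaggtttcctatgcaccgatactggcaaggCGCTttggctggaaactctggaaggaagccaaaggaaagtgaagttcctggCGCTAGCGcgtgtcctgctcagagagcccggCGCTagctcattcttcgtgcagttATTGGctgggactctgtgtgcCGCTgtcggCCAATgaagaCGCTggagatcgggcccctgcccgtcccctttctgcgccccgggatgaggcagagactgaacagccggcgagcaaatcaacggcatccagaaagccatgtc
PCDHGC4: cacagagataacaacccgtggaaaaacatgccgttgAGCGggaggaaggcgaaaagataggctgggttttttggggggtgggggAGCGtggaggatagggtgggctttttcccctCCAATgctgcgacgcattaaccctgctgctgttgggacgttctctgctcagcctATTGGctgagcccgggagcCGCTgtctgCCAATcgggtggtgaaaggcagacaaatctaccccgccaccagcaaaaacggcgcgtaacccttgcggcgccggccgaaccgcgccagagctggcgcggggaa

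CGCT was found 6 times in the PCDHGC3 promoter and 3 times in that of PCDHGC4, against a median of 2 over the clustered promoters, of which 97.9% held it, and a median of 2 over 27305 promoters, of which 69.4% held it. CCAAT was found 2 times in PCDHGC3 and 3 times in PCDHGC4, and 35.7% of all promoters held it. TATAA was found in neither, and 21.1% of all promoters held it. The 2 promoters were rich in CpG for this family. PCDHGC3 had 59.0% G and C with 18 CpG and PCDHGC4 had 60.7% with 23 CpG, against medians of 39.7% and 7 CpG over the clustered promoters and 58.3% and 14 CpG over all promoters.

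The deposited files are lists of broad peaks, 1 per library, and hold no read counts, so the depth of each library is unknown. H3K9me3 lists held 321975 to 410355 peaks that covered 723 to 770 Mb of chromosomes 1 to 22 and X, and H3K4me3 lists held 395287 to 506683 peaks that covered 623 to 933 Mb. Most are weak, since each list reaches down to a p-value of about 0.1, and 10551 to 36131 H3K9me3 peaks and 3067 to 13877 H3K4me3 peaks had q of at most 0.05. The names of 2 of the 4 H3K4me3 files, those labelled All gRNA replicate 2 and No gRNA replicate 1, give the other condition, so H3K4me3 libraries are called by their label. All values below use all deposited peaks unless stated. The targeted gene checks the H3K9me3 labels. At ZEB1, a repressor of epithelial genes, peaks covered 79.4% and 82.0% of the window in All gRNA against 4.57% and 1.33% in the No gRNA pair. For H3K4me3 the targeted gene goes against the labels. The ZEB1 start ± 1 kb was covered by 0% in replicate 1 and 100% in replicate 2 of each labelled group. The 2 libraries at 0% are those whose file names read All gRNA, and the 2 at 100% are those whose file names read empty vector. Each H3K4me3 direction below follows the labels, and the same libraries split by file name are given beside it. H3K4me3 shares were high at markers of more than a single cell type, and the part of the large covered length in this was not tested. All 5 mesenchymal markers (VIM, CD44, FN1, SPARC, CAV1) were covered over 66.8% or more of the promoter in each library. The epithelial keratins KRT8 and KRT18 were at 100% in each library too. The blood marker PTPRC was at 0% in all 4, and the neuronal marker RBFOX3 was at 51.5%, 0%, 0% and 100%.

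H3K9me3 covered most of the window around all 3 genes in All gRNA and a minor share in No gRNA. For each gene the gap between the groups was larger than that between replicates, which lay closer together in All gRNA than in No gRNA, as the plot of shares by gene shows. PCDHGC3 was covered over 73.0% and 70.1% of its window in All gRNA replicates 1 and 2, and over 10.8% and 28.0% in the No gRNA pair replicates 1 and 2. Its means were 71.6% ± 2.1 and 19.4% ± 12.2 (SD, n = 2 libraries per group), a difference of 52.2 percentage points. PCDHGC4 was covered over 80.6% and 76.1% in the All gRNA pair and over 15.2% and 23.6% in the No gRNA pair. Its means were 78.3% ± 3.2 and 19.4% ± 5.9 (SD, n = 2), a difference of 58.9 points, the largest of the 3 genes. PCDHGC5 was covered over 73.0% and 72.0% in the All gRNA pair and over 16.5% and 26.7% in the No gRNA pair. Its means were 72.5% ± 0.7 and 21.6% ± 7.2 (SD, n = 2), a difference of 50.9 points. In each gene No gRNA replicate 2 was the higher of the 2 controls.

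**Figure D1:**
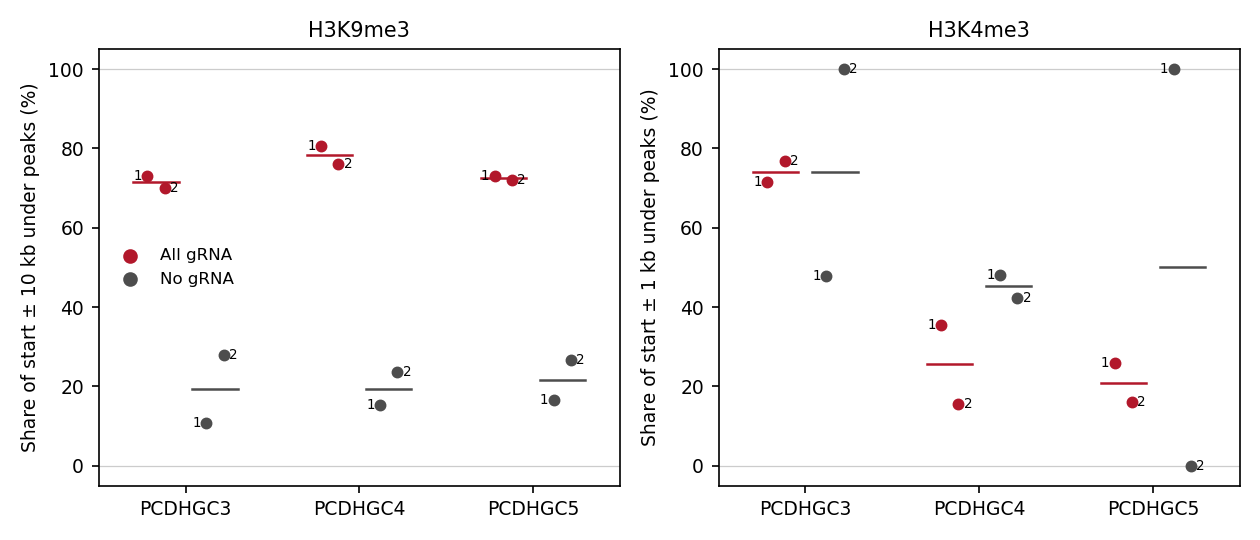
Share of the start ± 10 kb under H3K9me3 peaks (left, %) and of the start ± 1 kb under H3K4me3 peaks (right, %) for PCDHGC3, PCDHGC4 and PCDHGC5, with 1 point per library, its replicate number beside it, and a bar at the mean of the 2 libraries of each labelled group. The H3K9me3 points of All gRNA lie between 70.1% and 80.6% and those of No gRNA between 10.8% and 28.0%, while the H3K4me3 points of PCDHGC3 and PCDHGC5 overlap between groups.

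A promoter was called when the groups were separated by a gap of 25 percentage points or more, from the lowest library of the higher group to the highest library of the lower group. All 3 genes were called higher in All gRNA, where 36 of the 19962 promoters (0.180%) were called higher and 7 (0.0351%) lower. This count only restates how the genes were chosen. Their gaps between groups, 52.5 points for PCDHGC4, 45.3 for PCDHGC5 and 42.1 for PCDHGC3, ranked 2, 5 and 8 among all promoters, behind ZEB1 at rank 1 with 74.9 points. Of the 6 promoters whose difference of means was over 50 points, 3 were the C-type gamma genes. Most promoters carried little H3K9me3. The median share was 3.59% and 4.78% in the All gRNA pair and 6.63% and 7.62% in the No gRNA pair, and the median difference was −0.92 points. The All gRNA shares of the 3 genes were above those of 94.8% to 96.4% of promoters, and their No gRNA shares were above those of 62.3% to 84.1%.

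The difference came from long, weak peaks in place of short ones. In All gRNA replicate 1 a single peak of 11663 bases ran from 136 bases before the PCDHGC3 start through most of the PCDHGC4 variable exon (chr5:141475811-141487473), with a fold enrichment of 1.76 over the peak caller's background and q of 0.163. A second peak of 4455 bases followed over PCDHGC5 (chr5:141488927-141493381, fold 1.81, q 0.103). In All gRNA replicate 2 a single peak of 15217 bases began 1389 bases after the PCDHGC3 start and ended 852 bases after the PCDHGC5 variable exon (chr5:141477336-141492552, fold 1.79, q 0.106). Only 1.88% of the peaks in that list were as wide.

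The No gRNA libraries held 3 short peaks each between the PCDHGC3 start and the end of the PCDHGC5 variable exon. They were 289 to 1664 bases wide in replicate 1 (q 0.518 to 0.687) and 612 to 2746 bases wide in replicate 2 (q 0.189 to 0.526). The widest in each control lay at PCDHGC4, at chr5:141485881-141487544 in replicate 1 and chr5:141484772-141487517 in replicate 2. The longest peak over these genes averaged 13440 ± 2513 bases in All gRNA and 2205 ± 765 bases in No gRNA (SD, n = 2), and the groups did not overlap. Over the whole H3K9me3 lists peaks were also wider in All gRNA, with median widths of 1133 and 1112 bases against 959 and 929 bases. The All gRNA lists held fewer peaks, 321975 and 342875 against 401362 and 410355, and covered 740 and 770 Mb against 723 and 724 Mb. The part of this in the peak widths at these genes was not tested. The fold enrichments differed less than the widths, from 1.76 to 1.81 in All gRNA and from 1.48 to 1.67 in No gRNA.

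No H3K9me3 peak that touched this stretch had q of at most 0.05 in any of the 4 libraries. With that filter the shares of all 3 windows fell to between 0% and 3.1% in each library. At q of at most 0.05 PCDHGC3 was covered over 1.4% in All gRNA replicate 1 and not at all in the other libraries. PCDHGC4 and PCDHGC5 were then covered only in No gRNA replicate 2, by 3.1%, from a peak of 627 bases past the PCDHGC5 variable exon. The difference at these genes is therefore one of weak, broad enrichment. With gaps of up to 3 kb between peaks joined, the longest run was 17571 and 18844 bases in All gRNA and 5710 and 15743 bases in No gRNA, so that the groups were still apart but No gRNA replicate 2 came close to All gRNA.

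**Figure D2:**
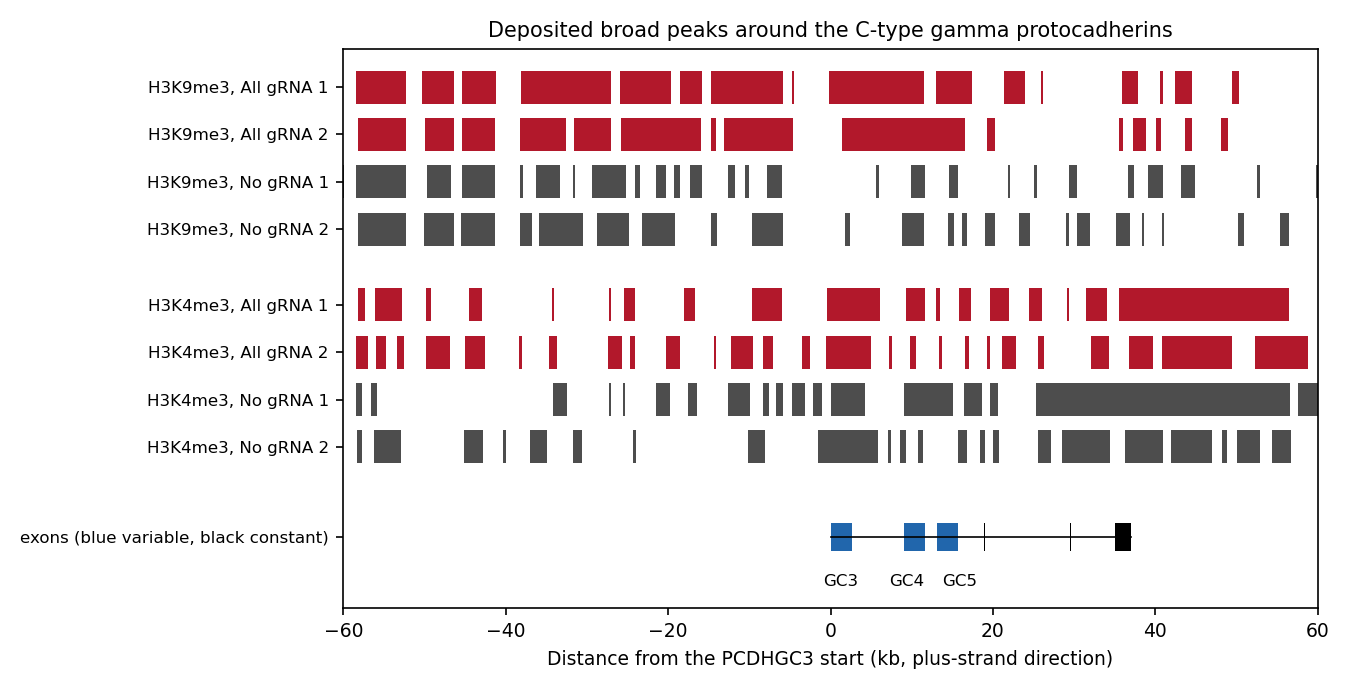
Deposited broad peaks of each library (bars) within 60 kb of the PCDHGC3 start, x axis in kb from that start in the plus direction, with the 4 H3K9me3 and 4 H3K4me3 libraries in rows, All gRNA in red and No gRNA in grey, and the variable and constant exons at the bottom. Wide H3K9me3 peaks of up to 15217 bases lie over the variable exons in both All gRNA libraries, where the No gRNA libraries hold peaks of at most 2746 bases.

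Within the genes H3K9me3 was higher in All gRNA from the PCDHGC3 start to the first constant exon. The stretch between the PCDHGC3 and PCDHGC4 variable exons, 6483 bases with no protocadherin exon, differed most. It was covered by 100% in both All gRNA lists, and by 4.5% and 4.0% in the No gRNA pair. Over the PCDHGC3 variable exon (chr5:141475966-141478546) the shares were 100% and 46.9% in the All gRNA pair and 0% and 23.7% in the No gRNA pair. Over the PCDHGC5 variable exon (chr5:141489081-141491700) they were 100% in both All gRNA lists, and 41.6% and 24.8% in the No gRNA pair. The PCDHGC4 variable exon (chr5:141485030-141487615) stood apart from the rest. It was covered by 94.5% and 100% in All gRNA, and already by 64.3% and 96.2% in the No gRNA pair, so the groups overlapped there.

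From the PCDHGC5 variable exon to the first constant exon the shares were 54.1% and 27.4% in the All gRNA pair against 0% and 20.2% in the No gRNA pair. In the intron after the first constant exon they were 26.7% and 8.8% against 6.3% and 28.8%, which overlap. In the intron after the second constant exon the direction was the opposite, with 0% in both All gRNA lists against 15.99% and 29.7%, lower by 22.9 points and not overlapping. The step from 30 to 35 kb after the PCDHGC3 start lies inside that intron and is not a separate region. Its shares were 0% in both All gRNA lists against 8.2% and 32.5%. Over the third constant exon, which holds the end of the shared coding sequence, they were 57.6% and 24.3% against 17.2% and 85.8%. The 20 kb after the PCDHGC3 start were covered by 79.9% and 79.6% in the All gRNA pair and by 15.2% and 28.3% in the No gRNA pair. The next 20 kb were covered by 24.2% and 11.3% against 15.8% and 28.1%, so the groups overlapped over those 20 kb as a whole.

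Within 1 kb of the start the 3 promoters differed from each other. The PCDHGC3 start ± 1 kb was covered by 56.8% in All gRNA replicate 1 and by 0% in the other 3 libraries, so the mark reached this promoter in a single library. The PCDHGC4 start ± 1 kb was covered by 100% in both All gRNA lists, and by 5.85% and 61.3% in the No gRNA pair. The PCDHGC5 start ± 1 kb was covered by 57.7% and 100% in the All gRNA pair and by 0% in each control. In the 5 kb just before the PCDHGC3 start peaks covered 8.4% and 8.3% in the All gRNA pair and 0% in each control, a gap in the mark shared by all 4 libraries.

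Before that gap the All gRNA libraries were higher again. From 10 to 5 kb before the PCDHGC3 start the shares were 83.8% and 100% in the All gRNA pair and 36.0% and 76.4% in the No gRNA pair. From 25 to 20 kb before it they were 100% in both All gRNA lists, and 37.5% and 67.6% in the No gRNA pair. From 45 to 40 kb before it, next to the PCDHGA12 start, all 4 libraries lay between 72.6% and 75.8%. The difference was uneven along this stretch, which separates the A- and B-type genes from the C-type genes, and was −3.1 points from 30 to 25 kb before the PCDHGC3 start.

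**Figure D3:**
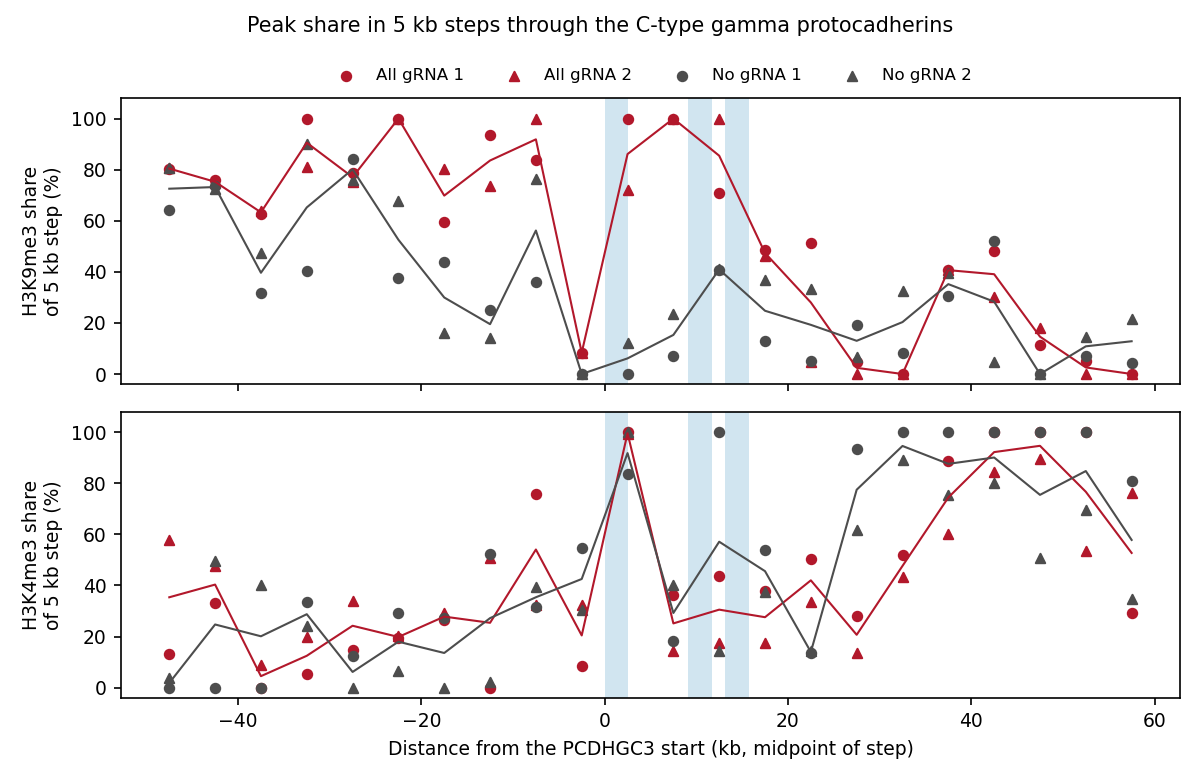
Share of consecutive 5 kb steps under H3K9me3 peaks (top, %) and H3K4me3 peaks (bottom, %) by distance from the PCDHGC3 start (kb), with 1 point per library, lines through the means of the 2 libraries of each labelled group and blue bands at the variable exons. H3K9me3 in All gRNA reaches 100% from 5 to 10 kb after the start, where No gRNA stands at 7.1% and 23.5%, and H3K4me3 covers 83.6% to 100% of the first 5 kb after the start in all 4 libraries.

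H3K4me3 at the PCDHGC3 promoter was present in all 4 libraries and did not separate the labelled groups. Its start ± 1 kb was covered by 71.5% and 76.7% in the pair labelled All gRNA (replicates 1 and 2), and by 47.9% and 100% in the pair labelled No gRNA. The means were 74.1% ± 3.7 and 73.9% ± 36.9 (SD, n = 2), a difference of 0.17 points. It was −25.9 points without the library labelled No gRNA replicate 1 and 26.2 without that labelled No gRNA replicate 2. Split by file name, the libraries named All gRNA were at 71.5% and 47.9% and those named empty vector at 76.7% and 100%, which do not overlap, with a difference of −28.7 points. The peak there was 6574 bases wide with a fold of 2.80 (q 0.0347) and 5494 bases wide with a fold of 2.68 (q 0.0604) in the pair labelled All gRNA. It was 4182 bases wide with a fold of 1.98 (q 0.450) and 7362 bases wide with a fold of 2.72 (q 0.0285) in the pair labelled No gRNA. The peaks cross the start in 3 libraries, and that of the library labelled No gRNA replicate 1 begins 43 bases after it.

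The H3K4me3 peak at PCDHGC3 lay largely inside the H3K9me3 peaks of All gRNA. Of its bases, 60.4% to 100% fell under H3K9me3 peaks of an All gRNA library, over all pairs of an H3K4me3 and an H3K9me3 list, and 0% to 14.6% under those of a No gRNA library. This contrast restates the H3K9me3 difference by which the genes were chosen and is not a separate result. In the first 5 kb after the start H3K9me3 covered 100% and 72.2% in the All gRNA pair against 0% and 12.2% in the No gRNA pair. The lists come from separate immunoprecipitations of many cells and cannot tell whether both marks were on the same chromosomes.

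At the other 2 promoters H3K4me3 was weaker and less even. The PCDHGC4 start ± 1 kb was covered by 35.6% and 15.7% in the pair labelled All gRNA and by 48.2% and 42.2% in the pair labelled No gRNA. The means were 25.6% ± 14.1 and 45.2% ± 4.2 (SD, n = 2), 19.6 points lower in All gRNA, and the groups did not overlap, but the gap of 6.6 points was below that of a call. Split by file name the direction turned, at 35.6% and 48.2% against 15.7% and 42.2%, which overlap, a difference of 12.9 points. The PCDHGC5 start ± 1 kb was covered by 26.0% and 15.99% in the pair labelled All gRNA, by 100% in that labelled No gRNA replicate 1 and by 0% in that labelled No gRNA replicate 2, so the controls lay on either side of both. Split by file name the shares were 26.0% and 100% against 15.99% and 0%, a difference of 55.0 points. None of the peaks at PCDHGC4 and PCDHGC5 had q of at most 0.05. None of the 3 genes was called for H3K4me3, where 1.78% of all promoters were called higher and 2.21% lower. Groups did not overlap at 6.33% of all promoters with All gRNA higher and at 7.59% with All gRNA lower, as for PCDHGC4. The median promoter was covered by 91.4% to 100% in the 4 lists, which puts PCDHGC4 and PCDHGC5 below the median promoter in 7 of their 8 readings.

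The H3K4me3 values at PCDHGC4 and PCDHGC5 also moved with the peaks kept and the window. With the same covered length of 623 Mb taken from each list, PCDHGC4 was at 35.6% and 15.7% against 0% and 0%, so that its direction turned, and PCDHGC5 turned to 26.0% and 0% against 0% and 0%. Within 500 bases of the start PCDHGC4 was called lower in All gRNA, at 21.2% and 0% against 46.4% and 80.1%, a call that holds under the labels and not under the file names, where the groups overlap. Without the 2 libraries whose file names give the other condition, the library labelled All gRNA replicate 1 was 28.5 points below that labelled No gRNA replicate 2 at PCDHGC3, 6.65 points below it at PCDHGC4 and 26.0 points above it at PCDHGC5.

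Among the 5 kb steps around these genes H3K4me3 differed most in the introns after the variable exons. From 25 to 30 kb after the PCDHGC3 start the mark covered 27.9% and 13.4% in the pair labelled All gRNA and 93.3% and 61.6% in the pair labelled No gRNA. From 30 to 35 kb it covered 52.0% and 43.3% against 100% and 89.2%, and the labelled groups did not overlap in either step. Split by file name they did, with 27.9% and 93.3% against 13.4% and 61.6% in the first and 52.0% and 100% against 43.3% and 89.2% in the second. No H3K4me3 peak that touched either step had q of at most 0.05 in any library. The coverage in the library labelled No gRNA replicate 1 came from a single peak, with a fold of 2.15 and q of 0.270. The first step lies mostly in the intron after the first constant exon. Over that whole intron the shares were 40.7% and 26.1% against 49.2% and 32.2%, so the labelled groups overlapped. The second step lies in the intron after the second constant exon, where the shares were 47.6% and 39.6% against 100% and 90.1%. The library labelled No gRNA replicate 1 had the largest covered length of the H3K4me3 lists, and its part in this difference was not tested. From 40 to 45 kb, past the end of the 3 genes, all 4 libraries lay between 80.2% and 100%.

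The other 50 clustered protocadherins carried H3K9me3 in both groups. Their shares in single libraries ran from 53.6% to 100% in All gRNA and from 40.5% to 87.6% in No gRNA, so that the 3 C-type gamma genes lay within the All gRNA range and below each of the other genes in No gRNA. None of the 50 was called, which says little about them, since only 0.180% of all promoters were called higher and 0.0351% lower. Groups did not overlap at 33 of them with All gRNA higher and at 0 with All gRNA lower, where over all promoters the shares were 11.0% higher and 24.4% lower. Their median difference was 8.71 points (range −0.85 to 22.4), against a median of −0.92 over all promoters. Many of these windows overlap, so the 33 genes are not 33 separate readings. Most promoters in the comparison also held little H3K9me3, with a median share of 3.59% to 7.62% per library. Promoters with H3K9me3 levels like those of the 50 genes were not compared, so the contrast cannot be read as particular to this family.

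By class the medians ran from 4.9 to 15.7 points. In the 13 alpha A-type genes the median difference was 7.0 points, from 1.7 at PCDHA1 to 17.1 at PCDHA7, with 7 not overlapping and higher. In the 16 beta genes it was 12.7, from 4.3 at PCDHB12 to 22.4 at PCDHB2, with 14 not overlapping and higher. In the 19 gamma A- and B-type genes it was 4.9, from −0.85 at PCDHGB5 to 18.6 at PCDHGB2, with 10 not overlapping and higher. The 2 alpha C-type genes, the counterparts of PCDHGC3 to PCDHGC5 in the alpha cluster, had a median of 15.7 points, with both not overlapping and higher. PCDHAC1 was at 59.3% and 56.8% against 46.2% and 45.7%, a difference of 12.1 points. PCDHAC2 was at 69.9% and 74.6% against 46.2% and 59.6%, a difference of 19.3 points.

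**Figure D4:**
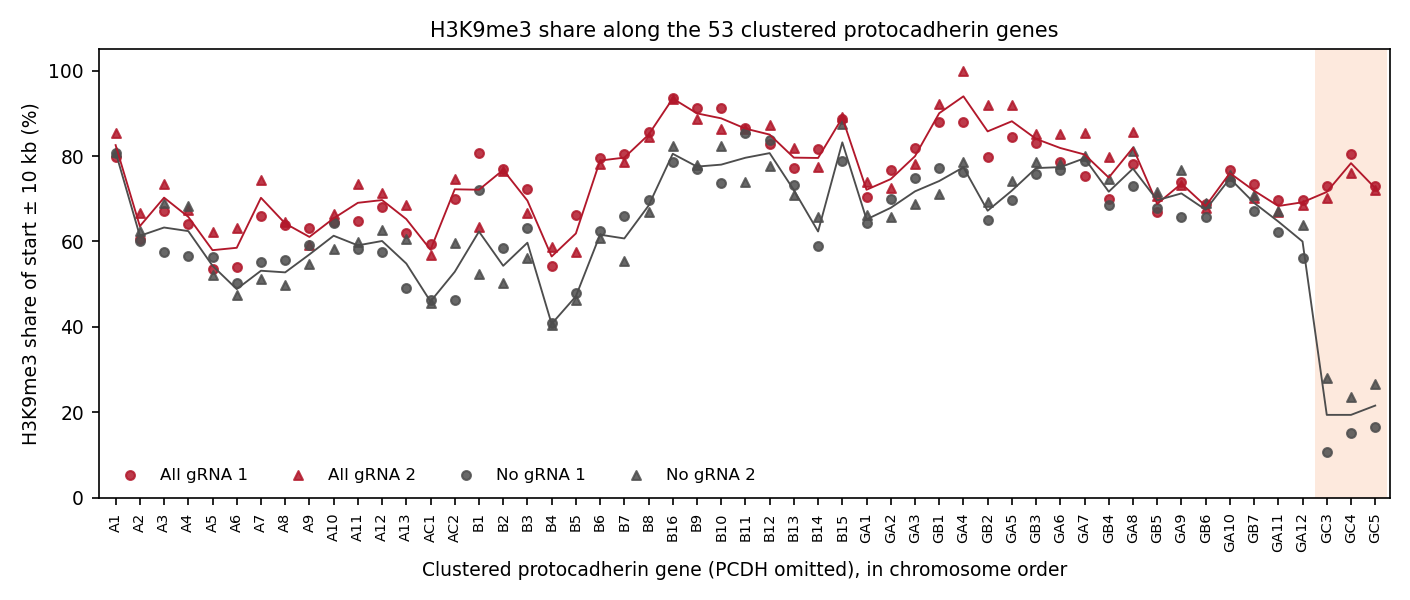
H3K9me3 share of the start ± 10 kb (%) at the 53 clustered protocadherin genes in chromosome order, with 1 point per library and lines through the means of All gRNA (red) and No gRNA (grey). PCDHGC3, PCDHGC4 and PCDHGC5, shaded at the right end, are the genes where No gRNA drops to between 10.8% and 28.0%, and All gRNA stays at 70.1% or above there.

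For H3K4me3 the other 50 genes had a median difference of 5.76 points (range −39.7 to 80.9), and 2 were called higher, where 1.78% of all promoters were. They were PCDHAC2, at 92.5% and 69.3% in the pair labelled All gRNA against 0% in both labelled No gRNA, and PCDHGA2, at 90.4% and 68.5% against 33.8% and 0%. Neither call held when the libraries were split by file name, where PCDHAC2 was at 92.5% and 0% against 69.3% and 0% and PCDHGA2 at 90.4% and 33.8% against 68.5% and 0%. The labelled groups did not overlap at 6 with All gRNA higher and at 5 with All gRNA lower, where all promoters gave 6.33% and 7.59%.

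H3K9me3 was low at the starts of the 3 genes nearest to the cluster on each side. At HARS1, HARS2 and ZMAT2 before it, peaks covered 0% in both All gRNA lists, and 1.5% to 4.3% in No gRNA. At DIAPH1, HDAC3 and RELL2 after it, they covered 1.6% to 13.4% in All gRNA and 0% to 4.9% in No gRNA. DIAPH1, which encodes a regulator of actin filaments, starts 129974 bases after PCDHGC5. Nearer to the cluster the mark was not uniformly low. From 40 to 45 kb after the PCDHGC3 start it covered 48.1% and 30.1% in the All gRNA pair and 52.1% and 4.6% in the No gRNA pair. From 45 to 50 kb it covered 11.2% and 18.1% against 0% in both No gRNA lists. None of these 6 genes was called for either mark, which says little about them. Over all promoters 0.180% were called higher and 0.0351% lower for H3K9me3, and 1.78% and 2.21% for H3K4me3. Of 3 other protein-coding genes inside the cluster, the unnamed ENSG00000279983 was at 81.8% and 77.5% against 58.9% and 65.7%, a difference of 17.4 points with no overlap, TAF7 was at 85.5% and 81.7% against 73.8% and 81.4%, and SLC25A2 lay between 98.1% and 100% in all 4.

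Protocadherins outside the cluster gave no H3K9me3 call. Of 10 delta protocadherins, which are single genes with adhesion roles in the nervous system, 0 were called for H3K9me3, which at 0.180% and 0.0351% of all promoters says little about them, and their median difference was −1.3 points. PCDH19 had the largest difference, 15.8 points, from 74.4% and 79.1% against 61.8% and 60.2%. For H3K4me3 1 of the 10, PCDH8, was called higher (1.78% of all promoters were), at 45.3% and 41.1% in the pair labelled All gRNA and 0% in both labelled No gRNA. This call too was lost when the libraries were split by file name. Genes known to act on clustered protocadherin promoters were not called for either mark, 0 of 13, where all promoters gave 0.180% and 0.0351% for H3K9me3 and 1.78% and 2.21% for H3K4me3. They include CTCF, which binds these promoters, the cohesin subunits RAD21, SMC1A and SMC3, SMCHD1, which silences clustered genes, and SETDB1 and TRIM28, the methyltransferase and the corepressor through which KRAB domains act. SETDB1 was covered by H3K9me3 over 21.5% and 23.1% in the All gRNA pair and 21.5% and 22.9% in the No gRNA pair, and by H3K4me3 over 100% in all 4 libraries.

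The promoters outside the cluster whose 4 H3K9me3 shares lay nearest to the mean of the 3 genes (75.5% and 72.7% in All gRNA, 14.2% and 26.1% in the No gRNA pair) were picked by Euclidean distance over the 4 libraries. SIGLEC12, which encodes a lectin of the immunoglobulin family, was the nearest at 12.3 points, and also the nearest to each gene taken alone. It was at 81.2% and 68.4% in the All gRNA pair and at 24.0% and 27.5% in the No gRNA pair. INTS6L, GOLGA6L22 and GPR65 were also among the nearest, with differences of 35.8 to 38.3 points. GOLGA6L22 belongs to a family of near-identical copies, so the placement of its reads is uncertain. SIGLEC12, INTS6L, GOLGA6L22 and GPR65 lie on chromosomes 19, X, 15 and 14.

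The H3K9me3 call depended on window and peak filter. With 25 kb on each side of the start PCDHGC3 was still called, with a difference of 43.6 points, but PCDHGC4 at 56.3% and 50.5% against 15.6% and 27.6% and PCDHGC5 at 54.6% and 49.6% against 15.4% and 29.7% were not. With 2 libraries per group the smallest possible p of an exact test would be far above any usual threshold, and the labels name them as biological replicates.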

How the data were processed

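Native ChIP-seq for H3K9me3 and H3K4me3 was done by the authors in SUM159 cells, with groups and replicate numbers taken here from the labels. The study's methods name fastp for trimming and bowtie2 for alignment to hg38, followed by removal of duplicates and of reads in excluded regions, after which MACS2 called peaks with fragments extended to 200 bases. The submitters' processing notes instead list bcl2fastq 2.17, Trimmomatic 0.33, Bowtie 1.1.2 and MACS2 2.1.0, and the difference could not be settled. Peaks were called in each library separately, and whether the input served as control was not stated. For each peak the authors deposited a score in whole numbers, the fold enrichment (a ratio to the local background), and −log10 values of p and q. The deposited p-value and q-value are those of MACS2. These columns were used to filter, rank and describe peaks. Without read counts in the lists the depth is unknown, and intervals for counting error were not computed. No pair of lists of a mark shared more than 32 identical intervals, so no library repeats another.

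Peaks on chromosomes 1 to 22 and X of a list were merged, and the percentage of bases they cover was taken over the start ± 10 kb (H3K9me3) and ± 1 kb (H3K4me3) of each of 19962 protein-coding genes (GENCODE release 44), with Python 3.11.15, NumPy 2.4.6 and pandas 2.3.3. A promoter was called at a gap of 25 percentage points between the groups' nearest libraries. Shares were compared without a model per promoter, and no p-value is given. The calculation was tested on simulated peaks. Named genes were the 3 members, ZEB1, the other clustered protocadherins (any called, and the extremes of each class), the 3 genes on each side of the cluster, called genes of the delta protocadherin and regulator lists, and the 5 nearest patterns, of which 1 is not reported here. Single regulators and cell type markers, given as examples of their lists, PCDH19 and the 3 other genes inside the cluster were named outside that rule, after their values were seen. Members and lists were chosen with earlier results of these data known. Alternatives were peaks with q of at most 0.05 or 0.01, an equal covered length per mark, other windows, canonical transcript starts, joined gaps, a gap of 50 points, a replicate block, and leaving out each library. The analyses without the 2 H3K4me3 libraries with another condition in the file name, and with H3K4me3 split by file name, were added after seeing the data.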

Additional observations from a re-analysis of the deposited data

How the results depend on the processing

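Of 39 alternatives for the H3K9me3 differences at PCDHGC3, PCDHGC4, PCDHGC5 and the 33135 bases around them (main difference 43.8 points), 27 stayed within the spread between replicates, 9 moved and 3 reversed. Leaving out a single library from a group of 2 cannot move a difference beyond that spread. Those alternatives are among the 27 and were bound to stay within it, so they do not show that the differences are stable. At q of at most 0.05 the differences were 0.71, −1.57 and −1.57 points and −0.52 over the interval, and at 0.01 all were 0, since those filters leave almost no peak there. At an equal covered length they were 52.2, 58.9 and 48.6. PCDHGC4 moved to 69.2 within 5 kb and to 31.8 within 25 kb, where PCDHGC5 moved to 29.5, and joining gaps of 3 kb moved the interval to 28.8. Without single libraries the 3 genes ranged from 43.6 to 63.1. For H3K4me3, PCDHGC4 moved to 0 at both q limits, 25.6 at equal covered length, −52.6 within 500 bases and −6.07 within 2 kb, and PCDHGC5 turned from −29.0 to 13.0 at equal covered length. Without single libraries PCDHGC3 ranged from −25.9 to 26.2, PCDHGC4 from −29.5 to −9.62 and PCDHGC5 from −79.0 to 20.99. Without the 2 libraries with another condition in the file name the differences were −28.5, −6.65 and 26.0, and with the libraries split by file name they were −28.7, 12.9 and 55.0.

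Counts of called promoters moved more. For H3K9me3 (36 higher, 7 lower), lower calls were 1 at q 0.05, 2 at 0.01 and 1 within 25 kb, a window of 5 kb gave 59 and 33, and a gap of 50 points 3 and 0. For H3K4me3 (356 and 442), higher calls were 27 at q 0.05, 3 and 201 lower at 0.01, 285 lower at equal covered length, 226 higher within 2 kb, 84 and 121 at a gap of 50, and 225 and 846 when split by file name. Without single libraries H3K9me3 gave 75 to 148 higher and 28 to 93 lower, and H3K4me3 706 to 2471 and 1020 to 1444, since fewer libraries must agree. With a replicate block, in which both same-numbered pairs had to differ, H3K9me3 gave 53 and 13 and H3K4me3 521 and 589. Same-numbered libraries did not deviate together (correlation across promoters 0.026 for H3K9me3 and 0.015 for H3K4me3), so the numbers only name libraries. The cause of the other moves was not tested.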
